A study of Mus musculus with 6 samples.

Results

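p53, encoded by Trp53, and 9 genes that it activates after DNA damage were examined in sorted mouse mammary epithelial cells that had or lacked Glis2. The 10 genes, Trp53, Mdm2, Ccng1, Bax, Bbc3, Pmaip1, Sesn2, Phlda3, Eda2r and Zmat3, were chosen by name from the 54418 gene identifiers of the count matrix, with earlier results of these data known. The rule itself used no measured value. Mammary glands came from 4-week-old females of the C57BL/6 strain. The control group held 3 Glis2+/+ mice (WT) and the mutant group 3 Glis2-/- mice (KO), with 1 library per mouse. GLIS2 is a zinc finger protein that acts as a transcriptional repressor downstream of the primary cilium, and the deletion is in the germline, so that every cell of the KO mice carried it and not only the epithelium. No group was irradiated or given a damaging agent, and all glands were digested enzymatically overnight at room temperature, trypsinized and sorted by FACS with a viability dye, the lineage antibodies TER-119, CD31 and CD45, and CD24 and CD49f. Each difference below is therefore one between genotypes in cells that had gone through this isolation.

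p53 is a transcription factor that is held at a low level in unstressed cells, because the ubiquitin ligase MDM2 marks it for degradation. DNA breaks activate kinases that stabilize p53, which then binds paired half-sites in its target genes and raises their transcription. Among these targets, Mdm2 and Ccng1 feed back on p53, Bax, Bbc3 and Pmaip1 drive apoptosis through mitochondria, and Sesn2, Phlda3, Eda2r and Zmat3 act on metabolism, AKT signalling, death receptor signalling and RNA. Since p53 is controlled mostly as a protein, the RNA of Trp53 is a poor measure of its activity, and the RNA of its targets is the usual substitute.

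Promoter sequences were searched for letters that match the p53 element near the start of these genes. RefSeq windows on GRCm38, from 250 bases before to 50 bases after a start, were given for 8 of the 10 genes and not for Zmat3 and Pmaip1. The search covered both strands and used the p53 half-site consensus, a stretch of 10 bases in which purines, a C, A or T bases, a G and pyrimidines follow each other and which reads the same on either strand. At least 1 match was found for 4 of the 8 genes, Trp53, Mdm2, Ccng1 and Bax, against 9.55% of the 27025 genes with a window and 8.36% of all 32851 windows. A pair of half-sites with at most 13 bases between them was found for 0 of the 8 genes and for 20 of the 27025, or 0.074%. Cdkn1a, the cell cycle inhibitor p21 and the best known p53 target, was 1 of these 20, and its promoter is printed for comparison. The stretches below, 5′ to 3′ on the strand of the gene, show the half-sites in capitals with their neighbouring bases. A match is a description of the letters, and no binding was measured.
Trp53, chr11:69580259-69580318, plus strand, half-site from position -75 relative to the start: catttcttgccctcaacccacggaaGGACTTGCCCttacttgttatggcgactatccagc
Mdm2, chr10:117710910-117710969, minus strand, half-site from -186: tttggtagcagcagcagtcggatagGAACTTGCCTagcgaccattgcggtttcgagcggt
Ccng1, chr11:40755437-40755496, minus strand, half-site from -185: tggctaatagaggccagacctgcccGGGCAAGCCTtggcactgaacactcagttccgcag
Bax, chr7:45467065-45467124, minus strand, half-site from -201: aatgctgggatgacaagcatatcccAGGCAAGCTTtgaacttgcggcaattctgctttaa
Cdkn1a, chr17:29090881-29090962, plus strand, half-sites from -73 and -51: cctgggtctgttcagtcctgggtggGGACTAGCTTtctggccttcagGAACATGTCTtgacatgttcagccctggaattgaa

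All 10 genes were detected in every library, but at very different depths. The libraries held between 24996524 and 31393917 estimated counts. In every library, 8 of the 10 genes had at least 120 counts, up to 3098 for Mdm2, whereas Pmaip1 and Eda2r stayed under 100 counts in each library and reached down to 3 and 2. Levels were compared between genes as TPM, which accounts for transcript length, rescaled here to the protein-coding genes. By the median of the 6 libraries, the order was Mdm2 at 104 TPM (range 87.1 to 116), Phlda3 at 71.0 (59.8 to 80.3), Trp53 at 63.1 (52.5 to 70.8), Bax at 41.4 (35.3 to 58.1), Ccng1 at 27.3 (24.3 to 31.5), Bbc3 at 12.0 (7.08 to 23.3), Sesn2 at 9.53 (6.40 to 10.1), Zmat3 at 6.67 (5.32 to 8.67), Pmaip1 at 1.01 (0.264 to 4.22) and Eda2r at 0.564 (0.0364 to 2.11). Mdm2 lay above 89.7% of the 19075 protein-coding genes detected, Bbc3 above 50.4% and Eda2r above 24.0%. The ranges of Mdm2 and Phlda3 did not overlap, nor did those of Bax and Ccng1, Ccng1 and Bbc3, or Zmat3 and Pmaip1. The ranges of all other neighbours in this order overlapped across libraries. Within each library, Phlda3 was above Trp53 and Trp53 above Bax in 6 of 6, whereas the order of Bbc3, Sesn2 and Zmat3 and that of Pmaip1 and Eda2r varied between libraries.

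**Figure D1:**
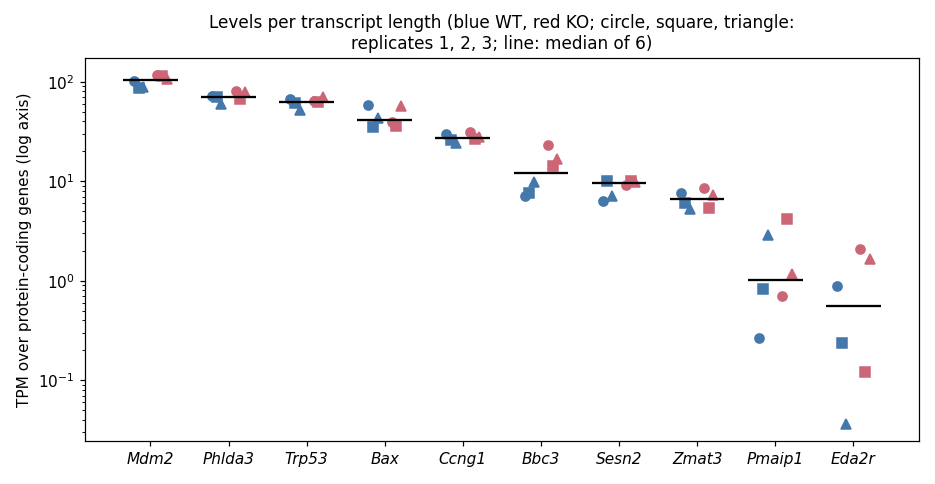
TPM over protein-coding genes (log axis) of p53 and 9 of its target genes in 3 WT (blue) and 3 KO (red) libraries; circles, squares and triangles are replicates 1, 2 and 3, and the black line is the median of the 6 libraries. Mdm2 was the most abundant of the 10 genes, with a median of 104 TPM, and Pmaip1 and Eda2r, near 1 TPM, had the widest spread.

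Loss of Glis2 was not accompanied by a change of any of the 10 genes that passed the test. The call required both an adjusted p no higher than 0.05 and a log2 fold change of 0.58 or more in either direction, in edgeR's quasi-likelihood test with Benjamini-Hochberg adjustment over 21236 genes. All 10 genes passed the filter on low counts, and 0 of 10 were called, against a background of 0% of all genes tested. In DESeq2 with apeglm shrinkage, 0 of 10 were called against 0.197% of all genes. At an unadjusted edgeR p under 0.05 there was 1 gene, Bbc3, against 5.32% of all genes. The fitted log2 fold change was above 0 for 10 of 10 genes, with a median of 0.17, whereas 51.6% of all genes tested lay above 0, with a median of 0.01. Their directions are described and not tested as a group, and those of Trp53, Ccng1 and Bax turned when the log2 TPM values, not rescaled, were fitted in limma. On that scale the median of all genes moved to -0.064 with an offset of 1 and to -0.139 with 0.1, and relative to it Trp53 and Ccng1 stayed above and Bax below. In protein-coding TPM the mean was higher in KO for 9 of the 10 genes, with Bax as the exception.

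**Figure D2:**
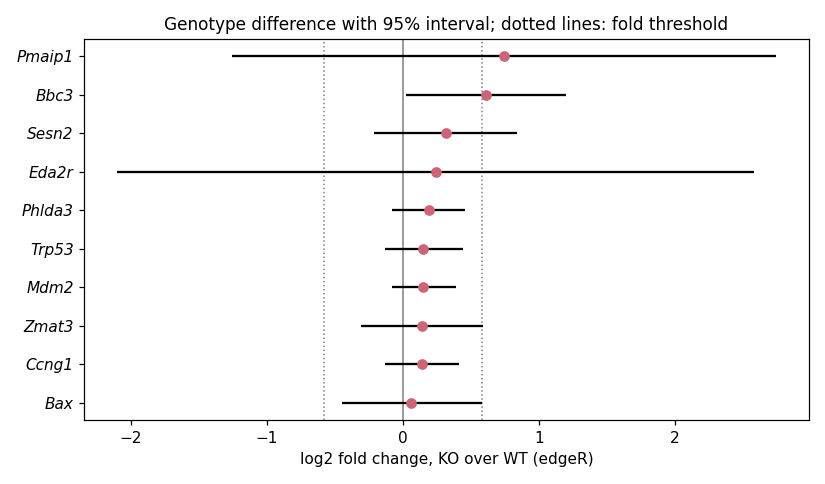
Log2 fold change of KO over WT (edgeR) with its 95% interval for each of the 10 genes; dotted lines mark the fold threshold of 0.58 in either direction. The interval spanned 0 for 9 of 10 genes, and that of Bbc3 started at 0.02.

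Trp53 itself (ENSMUSG00000059552, GRCm38 chr11:69580359-69591873, plus strand) had similar RNA levels in both genotypes. In CPM, the count scaled to a library size normalized by TMM, the WT libraries had 48.9, 48.1 and 40.1 and the KO libraries 48.0, 49.9 and 54.5. The groups overlapped, with WT replicate 3 lowest and KO replicate 3 highest. The means were 45.7 ± 4.88 in WT and 50.8 ± 3.36 in KO (SD, n = 3 mice each), a log2 fold change of 0.15 (SE 0.12, edgeR adjusted p = 0.941). The 95% interval of the fold, 0.914 to 1.35, lay inside the fold threshold in both directions. The processed pseudogene Trp53-ps on chromosome 17 had 0 to 4 counts per library.

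The feedback genes were also close between genotypes. Mdm2 (ENSMUSG00000020184, chr10:117688875-117710758, minus strand), which encodes the main ubiquitin ligase of p53, had 88.0, 82.6 and 81.4 CPM in the WT libraries and 85.7, 95.3 and 99.0 CPM in the KO libraries. KO replicate 1 lay below WT replicate 1, and KO replicates 2 and 3 above all WT libraries. Its log2 fold change was 0.15 (SE 0.10, edgeR adjusted p = 0.941), with a 95% interval of -0.08 to 0.39. In protein-coding TPM the KO libraries, at 107 to 116, were all above the WT libraries, at 87.1 to 101. Ccng1 (ENSMUSG00000020326, chr11:40748552-40755311, minus strand), the cyclin G1 gene whose product recruits a phosphatase to MDM2, had 42.5, 41.8 and 37.3 CPM in WT and 48.7, 42.5 and 42.9 CPM in KO. The lowest KO library and the highest WT library differed by less than the printed precision, and only KO replicate 1 stood clearly above the rest. Its log2 fold change was 0.14 (SE 0.12, edgeR adjusted p = 0.941).

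Bbc3, which encodes the BH3-only protein PUMA, separated the genotypes most clearly of the 10. Bbc3 (ENSMUSG00000002083, chr7:16308393-16318205, plus strand) had 5.15, 4.20 and 6.52 CPM in the WT libraries and 7.87, 8.88 and 7.41 CPM in the KO libraries, from 120 to 266 counts. Every KO library was above every WT library, which held in this direction for 2 of the 10 genes, Bbc3 and Phlda3, and for 6.23% of all genes tested. The mean was 5.29 ± 1.17 CPM in WT and 8.06 ± 0.75 CPM in KO (SD, n = 3 each). The fold of 1.52 had a 95% interval of 1.01 to 2.29, and the log2 fold change was 0.61 (SE 0.26). The unadjusted edgeR p was 0.0451 and the adjusted p 0.906, so that Bbc3 did not pass the test. Over 14 alternatives the adjusted p ranged from 0.583 to 1 and the log2 fold change from 0.47 to 0.89.

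The protein-coding TPM of Bbc3 gave a wider gap, with 7.08, 7.65 and 9.92 in WT and 23.3, 14.1 and 16.9 in KO. The mean was 8.22 ± 1.51 TPM in WT and 18.1 ± 4.70 TPM in KO. TPM depends on the transcript length that was assigned in each library, and for Bbc3 this length, taken from the ratio of count to TPM, differed by up to 2.23 times between libraries, against a median of 1.22 times over 6842 well covered genes. It was 1.36, 0.960 and 1.19 times its own mean in the WT libraries and 0.608, 1.09 and 0.795 times in the KO libraries. Bbc3 has 4 annotated transcripts of 405 to 1814 bases, and RefSeq gives it 3 starts.

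Bax encodes the pore-forming effector on which PUMA and NOXA converge. Bax (ENSMUSG00000003873, chr7:45461697-45466898, minus strand) had 15.3, 11.5 and 13.9 CPM in WT and 12.5, 12.0 and 18.0 CPM in KO. The groups overlapped throughout, and KO replicate 3 was the highest library. The log2 fold change was 0.06 (SE 0.22, edgeR adjusted p = 0.986), and it changed sign to -0.16 without KO replicate 3 and to -0.04 without WT replicate 2. The annotated gene Gm45808 shares 192 exonic bases with Bax on the same strand, and it had 10 counts in WT replicate 3 and 0 in the other libraries.

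Pmaip1 (ENSMUSG00000024521), the gene of the BH3-only protein NOXA, had few counts and a wide spread between libraries. It had 3, 29 and 43 counts in the WT libraries and 21, 71 and 43 counts in the KO libraries, or 0.0972, 1.02 and 1.65 CPM against 0.839, 2.37 and 1.37 CPM. WT replicate 1 was far below the other libraries and KO replicate 2 highest, and the groups overlapped. The log2 fold change of 0.74 (SE 0.88, edgeR adjusted p = 0.966) was the largest fitted value among the 10 genes, with a 95% interval of -1.26 to 2.74. Leaving out WT replicate 1 gave 0.18, KO replicate 2 gave 0.27 and WT replicate 3 gave 1.46.

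The remaining targets act outside the mitochondrial pathway. Sesn2 (ENSMUSG00000028893, chr4:132492032-132510501, minus strand), whose product restrains mTORC1 and is also induced by the ATF4 stress pathway, had 9.43, 15.9 and 10.8 CPM in WT and 14.2, 16.1 and 14.8 CPM in KO. The KO libraries lay close together, and WT replicate 2 lay among them while the other two WT libraries were lower. The mean was 12.0 ± 3.40 CPM in WT and 15.0 ± 0.973 CPM in KO, with a log2 fold change of 0.32 (SE 0.23, edgeR adjusted p = 0.941). It was 0.57 without WT replicate 2 and 0.15 without WT replicate 1. Gm12981 lies within the span of Sesn2 on the same strand, shares 0 exonic bases with it and had 21 to 43 counts per library.

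Phlda3 was the other gene without overlap in CPM. Phlda3 (ENSMUSG00000041801, chr1:135766119-135769136, plus strand), a pleckstrin homology domain protein that competes with AKT for membrane lipids, had 37.6, 39.6 and 34.3 CPM in WT and 42.0, 40.1 and 44.8 CPM in KO. The gap between the nearest libraries was narrow, and in protein-coding TPM the groups overlapped, at 59.8 to 71.3 in WT and 66.9 to 80.3 in KO. The mean was 37.2 ± 2.66 CPM in WT and 42.3 ± 2.37 CPM in KO. Its log2 fold change of 0.19 (SE 0.12, edgeR adjusted p = 0.940) had a 95% interval of -0.08 to 0.46. With Trp53, Mdm2 and Ccng1 it was 1 of 4 genes whose interval excluded a change as large as the fold threshold.

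Eda2r and Zmat3 complete the group. Eda2r (ENSMUSG00000034457, chrX:97333840-97377216, minus strand), the receptor of the A2 form of ectodysplasin, had 41, 11 and 2 counts in WT and 30, 8 and 21 counts in KO, or 1.33, 0.385 and 0.0768 CPM against 1.2, 0.267 and 0.671 CPM. The highest and the lowest library were both WT. Its log2 fold change of 0.24 (SE 1.02, edgeR adjusted p = 0.991) turned to -0.27 without WT replicate 3 and to -0.35 without KO replicate 1, and reached 1.58 without WT replicate 1. Zmat3 (ENSMUSG00000027663, chr3:32334792-32366014, minus strand), a zinc finger protein that binds RNA and affects splicing, had 23.6, 19.5 and 17.1 CPM in WT and 24.6, 17.5 and 24.2 CPM in KO. The groups overlapped, and the log2 fold change was 0.14 (SE 0.20, edgeR adjusted p = 0.973). It was 0.04 without WT replicate 3, 0.05 without KO replicate 1 or 3, 0.25 without WT replicate 1 and 0.27 without KO replicate 2.

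**Figure D3:**
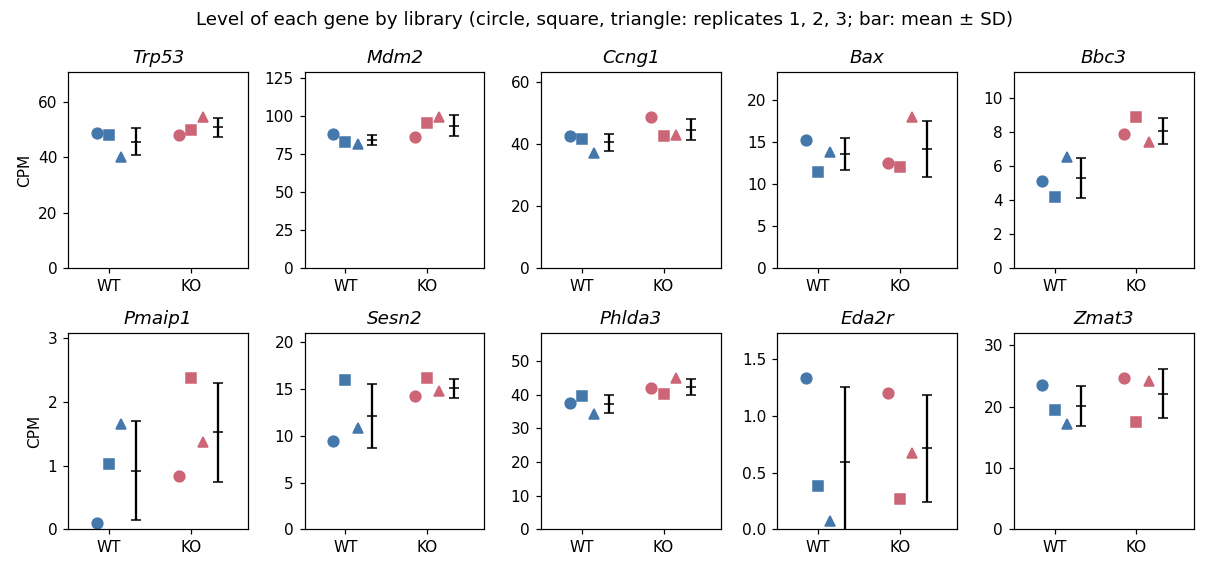
CPM (linear axis from 0, own scale per gene) of each of the 10 genes in 3 WT (blue) and 3 KO (red) libraries; the bar beside each group is the mean ± SD. Every KO library lay above every WT library for Bbc3 and Phlda3, and the groups overlapped for the other 8 genes.

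The same libraries tended to be low or high across the group. How often each library was lowest or highest over all genes tested was not counted. Whether the pattern is particular to these genes is therefore not shown. WT replicate 3 was the lowest library for 6 of the 10 genes, and WT replicates 1 and 2 for 2 each. A KO library was highest for 9 of the 10 genes, with Eda2r as the exception, and KO replicate 3 lay above the median of the 6 libraries for 10 of 10. WT replicate 2 did so for 1 gene, WT replicate 3 for 2, KO replicate 1 for 5 and WT replicate 1 and KO replicate 2 for 6 each. The genes are therefore not independent readouts of genotype, since they share their libraries.

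Genes of 9 further lists, some in the p53 network and some outside it, did not pass the test either. Of their 117 genes, 0 were called by edgeR and 0 by DESeq2 with apeglm. Over all genes the shares called were 0% in edgeR and 0.197% in DESeq2 with apeglm. In the list of other p53 targets, 29 of 30 genes were tested, with 18 above and 11 below a log2 fold change of 0, a median of 0.10, and 2 genes at an unadjusted edgeR p under 0.05. Those were Btg2, an antiproliferative cofactor, at 143 ± 20.2 CPM in WT and 203 ± 33.3 CPM in KO (log2 fold change 0.51, SE 0.15), and Abhd4, a lipid hydrolase (log2 fold change 0.30, SE 0.11). The KO libraries were all above the WT libraries for Btg2, Abhd4 and Plk2 and all below for Tnfrsf10b, where 5.5% of all genes tested were all below. Plk2 and Tnfrsf10b are named after their values were seen. Cdkn1a had 42.6, 46.0 and 58.7 CPM in WT and 35.6, 36.5 and 43.7 CPM in KO, on the other side of 0 from the 10 genes (log2 fold change -0.35, SE 0.16). In protein-coding TPM its KO libraries, at 50.1 to 57.5, were all below its WT libraries, at 58.2 to 79.3. Each of these genes except Plk2 and Tnfrsf10b had an edgeR adjusted p of 0.906.

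Among regulators of the p53 protein, 10 of 15 genes lay above and 5 below 0, with a median of 0.05. Mdm4, the partner of MDM2 that masks the activation domain of p53, had 91.7 ± 13 CPM in WT and 121 ± 18.7 CPM in KO (log2 fold change 0.39, SE 0.15). Usp7, which removes ubiquitin from p53 and MDM2, had 248 ± 11.5 CPM in WT and 217 ± 8.17 CPM in KO, with all KO libraries below all WT libraries (log2 fold change -0.19, SE 0.09). DNA damage kinases and sensors lay mostly on the lower side, with 12 of 15 below 0 and a median of -0.10. Topbp1, an activator of the kinase ATR (log2 fold change -0.35, SE 0.11), and Nbn, a subunit of the break sensor MRN (log2 fold change -0.37, SE 0.13), were lower in every KO library than in every WT library in CPM. In protein-coding TPM the groups overlapped for Topbp1 but not for Nbn. Hus1, of the same list, was higher in every KO library in CPM (log2 fold change 0.26, SE 0.19). The edgeR adjusted p was 0.941 for Hus1 and 0.906 for Mdm4, Usp7, Topbp1 and Nbn.

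The p53 relatives Trp63 and Trp73 were tested too. Trp63, a p53 family member that defines basal epithelial cells, had 145 ± 35.1 CPM in WT and 215 ± 55.2 CPM in KO (log2 fold change 0.56, SE 0.22, edgeR adjusted p = 0.906), with overlapping groups. In the BCL2 family and apoptosome, 9 of 18 genes lay above and 9 below 0, with a median of 0.02. Bcl2l11, the gene of the BH3-only protein BIM, had 61.7 ± 6.83 CPM in WT and 78.2 ± 9.29 CPM in KO (log2 fold change 0.34, SE 0.13), without overlap, and Cycs, cytochrome c, had a log2 fold change of -0.30 (SE 0.16). In the ATF4 stress response, which shares Sesn2 as a target, 7 of 8 genes lay below 0, with a median of -0.17. Ddit4, an mTORC1 inhibitor that p53 also induces, was the exception (20.4 ± 1.40 CPM in WT and 29.2 ± 2.00 CPM in KO, log2 fold change 0.52, SE 0.14), whereas Asns, asparagine synthetase, had -0.45 (SE 0.17). In the ectodysplasin pathway, the 3 of 4 genes above 0 included Edar, the receptor of the A1 form (log2 fold change 0.31, SE 0.40).

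**Figure D4:**
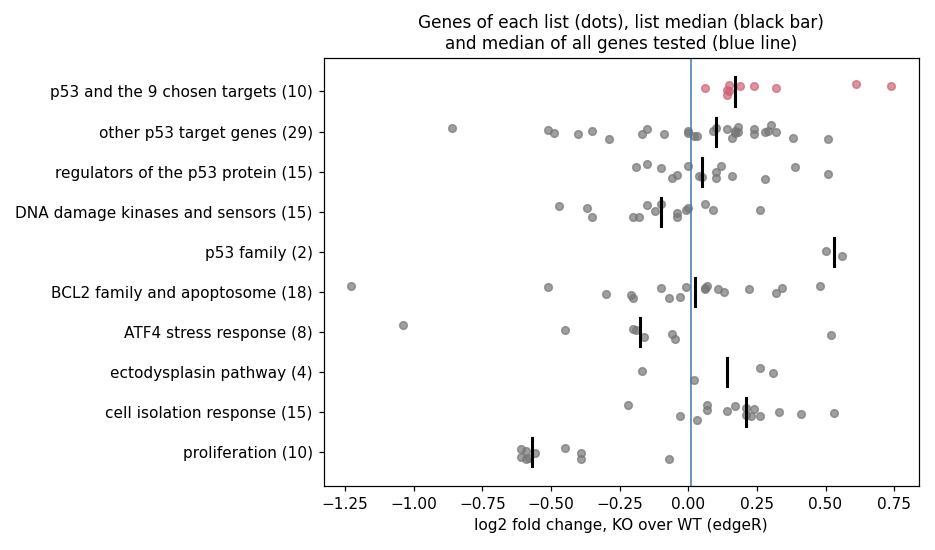
Log2 fold change of KO over WT (edgeR) for each tested gene of the p53 group (red) and of 9 further lists (grey), with the number of genes in brackets, the list median as a black bar and the median of all genes tested, 0.01, as a blue line. The medians ran from -0.57 for proliferation genes to 0.53 for the 2 genes of the p53 family, and that of the p53 group was 0.17.

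Lists that report on isolation and cell cycle were examined beside the 10 genes. No gene in them was called, and their part in the values of Bbc3, Phlda3 and the other genes was not tested. Genes that tissue dissociation induces lay above 0 in 13 of 15 cases, with a median of 0.21. Jun had 1800 ± 76.4 CPM in WT and 2590 ± 528 CPM in KO (log2 fold change 0.53, SE 0.14), and Fos had a log2 fold change of 0.41 (SE 0.17). Proliferation genes lay below 0 in 10 of 10 cases, with a median of -0.57, and 7 had an unadjusted edgeR p under 0.05. Mki67 had 912 ± 180 CPM in WT and 608 ± 84.6 CPM in KO (log2 fold change -0.59, SE 0.16), and Mcm5, a subunit of the replicative helicase, 76.4 ± 3.42 and 51.7 ± 7.98 CPM (log2 fold change -0.56, SE 0.13). The edgeR adjusted p of these 4 genes was 0.906.

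The labelled cell type was checked with marker lists, in which no gene was called, and the part of the marker levels in the values of the 10 genes was not tested either. All 8 basal markers and all 10 luminal markers, keratins and Epcam among them, were detected in every library. The summed basal markers ran from 4300 to 5560 CPM in WT and from 5880 to 7000 CPM in KO without overlap, whereas the luminal markers ran from 4150 to 6950 and from 4090 to 7240 CPM. Fibroblast markers, all 7 of them detected in every library, summed to 2330 to 7790 CPM in WT and 2610 to 5950 CPM in KO, which overlaps the range of the epithelial lists. Endothelial markers summed to 112 to 603 and 173 to 620 CPM, adipocyte markers to 52.3 to 308 and 94.8 to 262 CPM, with Adipoq and Lep at 0 in some libraries, and muscle markers to 13.8 to 95.8 and 26.3 to 34.9 CPM. Haematopoietic markers were low, at 20.3 to 37.8 CPM in WT and 39.0 to 75.9 CPM in KO without overlap, and erythroid markers at 6.34 to 20.2 and 11.6 to 31.6 CPM. Of the 8 haematopoietic markers, 7 had a log2 fold change above 0, but only 3 had all KO libraries above all WT libraries. Ptprc, 1 of these 3, had 9.56 ± 1.52 CPM in WT and 22.7 ± 13.9 CPM in KO. Adgre1 went the other way (log2 fold change -1.56, SE 0.66). In bulk RNA, a different share of cells of a type and a different amount of RNA per cell cannot be told apart.

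Glis2 RNA was present in all libraries, with 21.7, 23.2 and 19.6 CPM in WT and 10.1, 17.0 and 16.3 CPM in KO. In CPM every KO library was below every WT library, with a log2 fold change of -0.57 (SE 0.22, edgeR adjusted p = 0.906). In protein-coding TPM the groups overlapped, with 29.7, 38.4 and 18.4 in WT and 30.6, 30.2 and 30.6 in KO, and the mean was not lower in KO. The sources used here do not say which part of the gene was deleted, so this RNA level does not check the genotype labels. No library was a copy of another.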

How the data were processed

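RNA was measured in 3 WT (Glis2+/+) and 3 KO (Glis2-/-) mice, as 1 library of sorted mammary cells each. The authors made libraries from 1 ng of total RNA with a stranded kit that depletes ribosomal RNA, and estimated counts with Salmon 1.2.1 on mm10 transcripts with the genome as decoy. The deposited matrix holds these estimated counts per gene as whole numbers without normalization, and a second one, also deposited by the authors, holds TPM as log2(TPM + 1). Salmon shares reads among overlapping transcripts, so the estimates of overlapping genes are uncertain. Between 83.0% and 85.7% of TPM belonged to Gm23935, so TPM was rescaled to protein-coding genes, which held 8.98% to 11.4%.

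Of 54418 identifiers, 54166 were matched to the GENCODE M21 annotation of GRCm38 for symbols and positions. Total counts were 24996524 to 31393917 per library. Counts were compared with edgeR 4.0.16 in R 4.3.3 (filterByExpr, TMM, quasi-likelihood test, Benjamini-Hochberg adjustment over 21236 genes). The standard error is the log2 fold change over the square root of F, and intervals are at 95%. The common biological coefficient of variation was 37.4%. The p-values weigh the genotype difference against the variation between the 3 mice per group, which was estimated with information shared across genes. Alternatives were DESeq2 1.42.0 with apeglm 1.24.0, DESeq2 size factors, other filters, protein-coding genes only, no fold threshold, log2 TPM with offsets of 1 and 0.1 in limma 3.58.1, a replicate block, and leaving out each library. The scripts were tested on simulated data.

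The 10 genes and all lists were chosen with earlier results of these data known. Named beside them are the 2 genes of each list with the smallest unadjusted p (1 for lists under 5 genes), Cdkn1a, Trp63, Mdm4, Glis2, and annotated genes overlapping one of the 10 or named as its pseudogene. Plk2, Tnfrsf10b, Hus1, Ptprc and Adgre1 are named after their values were seen.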

Additional observations from a re-analysis of the deposited data

How the results depend on the processing

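None of the 10 genes and none of the 117 genes in the further lists was called under any of 15 alternatives. Over all genes the count of calls was 0 in edgeR, 46 with DESeq2 and apeglm, 40 without a filter on low counts and 2 with log2(TPM + 0.1) in limma, and 0 under the other 12 alternatives. The median log2 fold change of the 10 genes was 0.17, 0.03 with log2(TPM + 1) and 0.07 with log2(TPM + 0.1), where the median of all genes shifted from 0.011 to -0.064 and -0.139. On these 2 scales, in that order, the log2 fold change turned to -0.02 and -0.02 for Trp53, to -0.04 and -0.06 for Ccng1 and to -0.16 and -0.20 for Bax. With log2(TPM + 1) it also fell from 0.19 to 0 for Phlda3, from 0.74 to 0.05 for Pmaip1 and from 0.32 to 0.07 for Sesn2. On the same scale it fell from 0.24 to 0.11 for Eda2r and from 0.14 to 0.01 for Zmat3. With log2(TPM + 0.1) it was 0 for Phlda3 and Zmat3, 0.25 for Pmaip1 and 0.15 for Sesn2, but rose to 0.62 for Eda2r. Leaving out 1 library gave -0.16 to 0.17 for Bax and -0.35 to 1.58 for Eda2r, and the other 8 genes stayed above 0 (Trp53 0.07 to 0.19, Mdm2 0.09 to 0.21, Ccng1 0.07 to 0.17, Zmat3 0.04 to 0.27), with a median over the 10 genes of 0.11 to 0.24. Requiring at least 10 counts in every sample removed Pmaip1 and Eda2r, and 8 of the remaining 8 stayed above 0. Same-numbered WT and KO libraries deviated from their group means with correlations of -0.02, 0.17 and 0.02. Differently numbered libraries were not compared, so these values do not decide whether the numbers pair the mice. With a replicate block 0 genes were called and the median of the 10 genes was 0.17. The block moved the log2 fold change of Pmaip1 from 0.74 to 1.18 and that of Eda2r from 0.24 to 0.60. The cause of these shifts was not tested. Pmaip1 and Eda2r had under 100 counts in each library and a CV between libraries of a genotype of 63.6% and 86.7%, and their intervals reached past the fold threshold in both directions.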

Other observations

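Transcript lengths implied by count over TPM differed most for the sparse genes of the group. The longest and shortest of the 6 libraries differed by 5.19 times for Eda2r, 3.09 times for Pmaip1 and 2.23 times for Bbc3, by 1.26 times for Mdm2 and by 1.00 to 1.18 times for the other 6. Eda2r has 4 annotated transcripts of 779 to 4752 bases and Pmaip1 3 of 1012 to 2727 bases, whereas Sesn2, with 1 transcript of 3475 bases, had the same length in every library. In protein-coding TPM the mean of KO was above that of WT for 9 of the 10 genes, with Bax as the exception at 45.6 ± 11.5 in WT and 44.3 ± 11.7 in KO.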
